A study of Mus musculus with 36 samples.

Results

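Apolipoprotein genes encode the proteins that carry fat and cholesterol through the blood. The 10 genes described here are Apoa1, Apoa2, Apoa4, Apoa5, Apob, Apoc2, Apoc3, Apoe, Apoh and Apol11b. They were chosen by name, with earlier results of these data known. Each has a row among the 22558 genes of both expression tables of the study. All 10 passed a mean of 0.5 FPKM (fragments per kilobase of transcript, scaled to depth) over the 18 libraries that carry a liver transcriptome. Only Apoe and Apoa2 passed it in the 18 libraries that carry a retina transcriptome.

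The study sequenced total RNA of liver and retina from C57BL/6 mice, an inbred strain without a transgene or other mutation named in the labels. Its title asks how drugs that stabilise HIF, the oxygen-sensing transcription factor, act in the prevention of retinopathy of prematurity. The treated mice received DMOG (dimethyloxalylglycine) or roxadustat, small molecules that block HIF prolyl hydroxylases and so keep HIF alpha from being degraded, and the control mice received PBS, a saline buffer. Each tissue label has 6 libraries with DMOG, 6 with roxadustat and 6 with PBS. Dose, time and age are not given in the labels, nor whether the libraries of a group come from separate animals, so the spread behind each p-value may be partly technical.

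The tissue labels went against the transcriptomes. Summed over 12 hepatocyte markers, the libraries labelled retina held 20745 to 33404 FPKM with DMOG, 22357 to 31008 FPKM with roxadustat and 24083 to 32017 FPKM with PBS. Summed over 8 rod photoreceptor markers, these libraries held 1.06 to 2.77 FPKM, while the libraries labelled liver held 9383 to 16465 FPKM. The hepatocyte markers Alb, Ahsg and Trf were listed at 0 in all 18 libraries labelled retina, and the hepatocyte list counts Apoa1 itself. The libraries are therefore named by label, with the transcriptome beside it. Library totals lay between 433021 and 540324 FPKM with the label retina and between 542785 and 617853 FPKM with the label liver.

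DMOG replicate 5 with the label retina stood apart from its group. The mean of 20 HIF targets in that library was 0.03 above the PBS mean on the log2 scale, against 1.43 to 1.95 in the other 5 DMOG libraries, 1.04 to 1.20 with roxadustat and -0.11 to 0.09 with PBS. The DMOG calls of the members and the counts of the lists of related genes are also given without it. Other values include it unless stated. By Xist and Y-linked genes, the libraries labelled retina held 4 female and 2 male with DMOG, 1 and 5 with roxadustat, and 3 and 3 with PBS.

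Apolipoproteins coat lipoprotein particles, give them shape and steer them to enzymes and receptors. Liver builds very low density lipoprotein (VLDL) around apolipoprotein B and secretes most of the proteins of high density lipoprotein (HDL), while small exchangeable apolipoproteins speed or slow the clearance of triglyceride by lipoprotein lipase. In retina, apolipoprotein E is known as a product of Mueller glia.

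The promoter windows of Apoa5 and Apol11b, which were called with DMOG in the liver transcriptome, are shown beside those of Apoc2 and Apoa1, which were not. They come from RefSeq (GRCm38.p6, a later build than the mm9 of the deposited values), run from 250 bases before to 50 bases after the annotated start and were found for 9 of the 10 genes, all but Apoc3. Each is printed 5′ to 3′ on the strand of its gene, and capitals mark a match on either strand to ACGTG, a core letter string of HIF response elements (overlapping matches form 1 capital run). The window of Apoa5 lies at chr9:46268358-46268657 on the plus strand, Apol11b at chr15:77643237-77643536 on the minus strand, Apoc2 at chr7:19677892-19678191 on the minus strand and Apoa1 at chr9:46228380-46228679 on the plus strand.
Apoa5: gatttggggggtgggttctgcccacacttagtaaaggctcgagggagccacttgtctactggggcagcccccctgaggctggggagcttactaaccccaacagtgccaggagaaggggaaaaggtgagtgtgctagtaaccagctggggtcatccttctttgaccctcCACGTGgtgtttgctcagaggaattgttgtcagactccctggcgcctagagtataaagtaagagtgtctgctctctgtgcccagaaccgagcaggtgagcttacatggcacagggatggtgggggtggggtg
Apol11b: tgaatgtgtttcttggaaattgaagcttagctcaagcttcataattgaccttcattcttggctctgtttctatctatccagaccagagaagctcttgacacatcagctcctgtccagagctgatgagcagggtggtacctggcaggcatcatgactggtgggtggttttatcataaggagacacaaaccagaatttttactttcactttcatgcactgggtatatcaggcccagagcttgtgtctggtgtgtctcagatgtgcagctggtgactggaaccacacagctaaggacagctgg
Apoc2: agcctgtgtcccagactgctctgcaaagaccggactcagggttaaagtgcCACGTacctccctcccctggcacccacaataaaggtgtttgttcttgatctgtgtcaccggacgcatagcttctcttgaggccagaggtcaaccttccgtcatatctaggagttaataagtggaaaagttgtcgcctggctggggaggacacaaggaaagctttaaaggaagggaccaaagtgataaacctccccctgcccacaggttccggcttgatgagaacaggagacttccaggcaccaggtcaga
Apoa1: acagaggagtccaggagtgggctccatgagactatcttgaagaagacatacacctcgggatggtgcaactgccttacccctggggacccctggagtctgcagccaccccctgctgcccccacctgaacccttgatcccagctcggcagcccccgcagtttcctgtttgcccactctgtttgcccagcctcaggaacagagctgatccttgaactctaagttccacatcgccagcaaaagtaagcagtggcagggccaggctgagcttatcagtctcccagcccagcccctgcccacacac

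ACGTG was present in the windows of Apoa5 and Apoc2 alone among the members with a window. In Apoa5 it read on both strands in the palindrome CACGTG, with the plus-strand match starting 81 bases before the start of the window printed and 106 bases before a second annotated start, and in Apoc2 it read on the opposite strand, 200 bases before the start. Of 32851 RefSeq promoter windows of this length, 19.6% held ACGTG. A related core, GCGTG, and CAAAGTC, a string found in elements of the hepatocyte nuclear factor 4 type, were in no window of a member, against 32.4% and 4.44% of all windows. These matches describe letters in the windows and no binding was measured.

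In the libraries labelled retina (liver transcriptome), all 10 genes were detected in every library. With PBS, Apoe, which mediates the uptake of remnant particles, had the highest mean at 12532 ± 2477 FPKM (SD, n = 6 libraries in this and the following means). Apoa1, the main protein of HDL, followed with 10073 ± 1561 FPKM, and Apoa2, the second HDL protein, with 7728 ± 881 FPKM. Apoh, a phospholipid-binding plasma protein also called beta-2-glycoprotein I, had 1837 ± 178 FPKM, and Apob, the structural protein of VLDL, had 1033 ± 97.9 FPKM. Apoc2, the cofactor that activates lipoprotein lipase, had 531 ± 63.5 FPKM. Apoc3, an inhibitor of lipoprotein lipase and of remnant uptake, had 218 ± 49.4 FPKM. Apoa5, which promotes lipase action on triglyceride-rich particles, had 109 ± 28.9 FPKM, and Apoa4, a protein of chylomicrons and HDL, had 67.1 ± 19.0 FPKM. Apol11b, a mouse member of the apolipoprotein L family, was lowest at 2.21 ± 0.93 FPKM.

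Over all 18 libraries the mean level put Apoe at rank 2, Apoa1 at rank 4 and Apoa2 at rank 5 of 22558 genes, while Apol11b was at rank 5179. Neighbours in this order with PBS had ranges that overlapped for Apoe and Apoa1, Apoa1 and Apoa2, Apoc3 and Apoa5, and Apoa5 and Apoa4, though the first of each pair was higher in 6 of 6 libraries. The other neighbours did not overlap. The order of the means was the same with both drugs, but the ranges of Apoc2 and Apoc3, which did not overlap with PBS, overlapped with each drug. Apoc2 exceeded Apoc3 in 3 of 6 DMOG libraries and in 4 of 6 roxadustat libraries, against 6 of 6 PBS libraries. Together the 10 genes took 4.93% to 7.59% of the summed FPKM with DMOG (median 6.23%), 5.81% to 7.46% with roxadustat (median 6.38%) and 6.19% to 8.75% with PBS (median 7.13%).

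**Figure D1:**
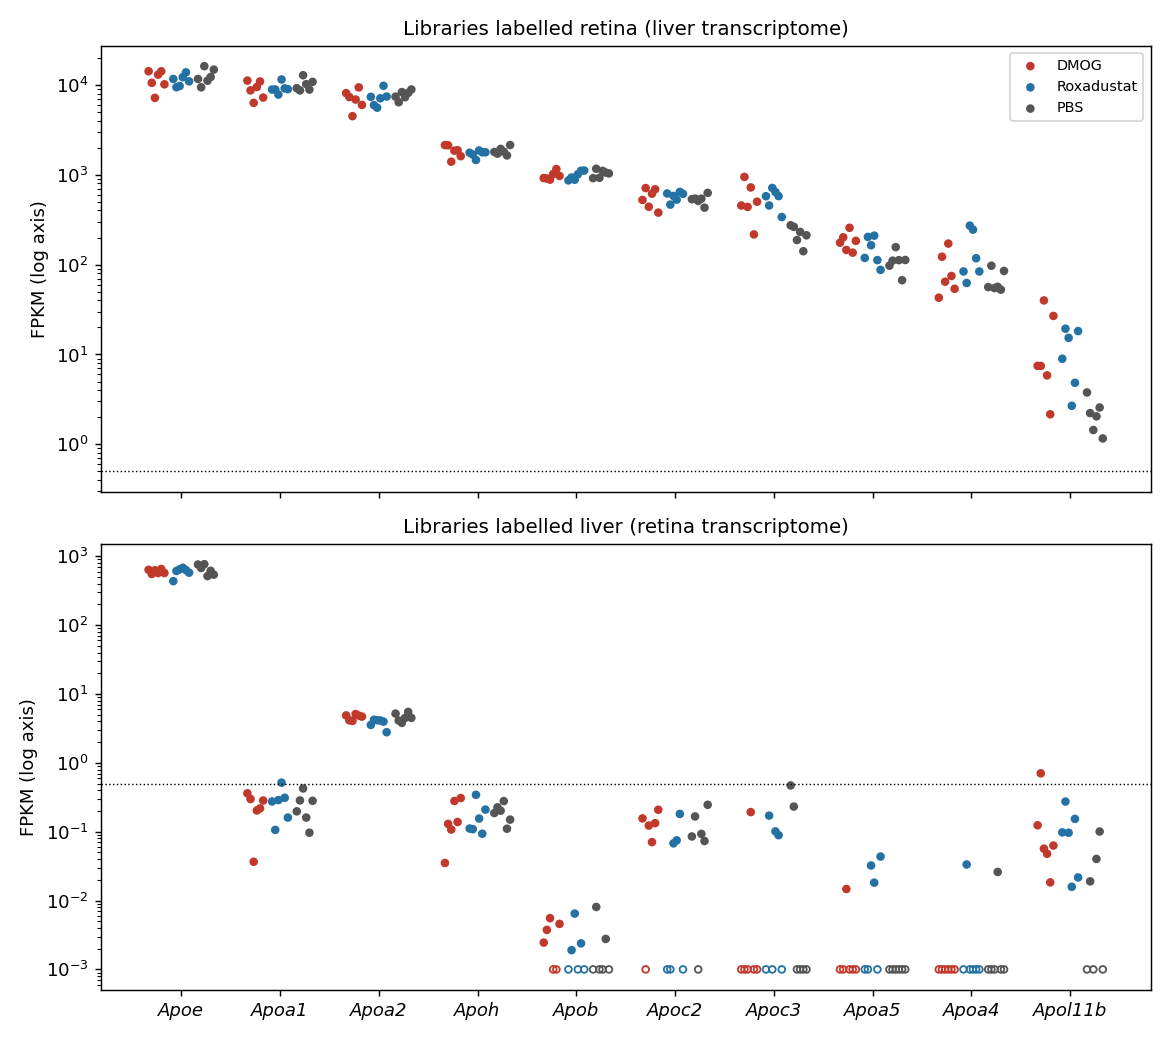
FPKM of the 10 apolipoprotein genes in every library (log axis), with libraries labelled retina (liver transcriptome) above and libraries labelled liver (retina transcriptome) below, coloured by treatment. Open points at the bottom stand for values listed at 0, drawn at 0.001, and the dotted line marks the mean of 0.5 FPKM needed for a test, which all 10 genes pass above and only Apoe and Apoa2 pass below.

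With DMOG, 3 of the 10 genes were higher in the liver transcriptome and none was lower. Apoc3, the lipase inhibitor, rose 2.32-fold, Apoa5, which favours lipolysis, rose 1.68-fold, and Apol11b rose 3.99-fold. The 10 genes were chosen with earlier results of these data known, so this count does not measure apolipoprotein genes as a family. Of 16 other apolipoprotein genes tested, described below, 0 were higher and 1 was lower. Among all 12657 genes tested, 8.26% were called higher and 11.7% lower with DMOG, 20.0% in all. Rescaling every library to an equal total moved this split of all genes to 584 higher and 2690.0 lower (1046 and 1480.0 as deposited), and it left these 3 calls in place. The most abundant members, Apoe, Apoa1, Apoa2, Apoh and Apob, were not called. Calls rest on limma fits of log2(FPKM + 0.5) with an adjusted p under 0.05, and folds are on that scale, which understates changes of low genes.

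Apoc3 had 217 FPKM in the lowest, 478 FPKM in the median and 945 FPKM in the highest DMOG library, against 141, 221 and 274 FPKM with PBS. The groups overlapped through DMOG replicate 5 alone, whose 217 FPKM lay within the PBS range, while the other 5 libraries, from 438 FPKM upwards, were above every PBS library. Its log2 fold change was 1.22 ± 0.27 (SE, adjusted p = 0.00509, 95% interval 0.64 to 1.79). Without DMOG replicate 5 it was 1.45 ± 0.22 (adjusted p = 8.22e-05).

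Apoa5 had 136 FPKM in the lowest, 180 FPKM in the median and 257 FPKM in the highest DMOG library, against 67.0, 111 and 156 FPKM with PBS. All 6 DMOG libraries were above the PBS mean and 4 were above the highest PBS library, so the groups overlapped in part. Apoa5 rose by 0.75 ± 0.22 on the log2 scale (SE, adjusted p = 0.0236). The call was lost without DMOG replicate 4 (0.65, adjusted p = 0.0634) and without PBS replicate 5 (0.62, adjusted p = 0.0525), and it held without DMOG replicate 5 (0.83 ± 0.23, adjusted p = 0.00935).

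Apol11b was spread widely within the DMOG group. It had 2.16 FPKM in the lowest, 7.46 FPKM in the median and 39.9 FPKM in the highest DMOG library, against 1.16, 2.14 and 3.78 FPKM with PBS. The lowest value was again that of DMOG replicate 5, and the other 5 DMOG libraries were above every PBS library. Apol11b rose by 1.99 ± 0.56 on the log2 scale (SE, adjusted p = 0.0184), and by 2.39 ± 0.52 without DMOG replicate 5 (adjusted p = 0.00175). Apol11b lies on chromosome 15 between Apol10b and Apol7e among further apolipoprotein L genes of like sequence, so how reads were divided among them is uncertain, and its level with it.

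**Figure D2:**
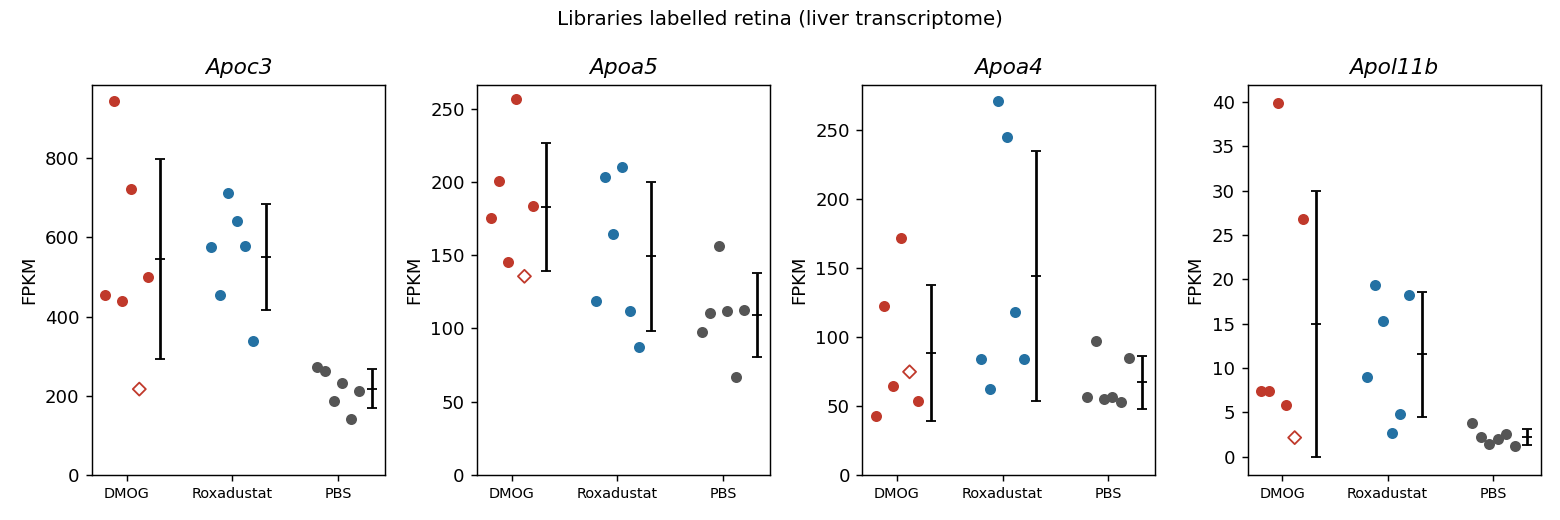
FPKM of Apoc3, Apoa5, Apoa4 and Apol11b in the 6 libraries of each treatment with the label retina (liver transcriptome), each point a library, with the mean and SD beside each group. The open diamond is DMOG replicate 5, and for Apoc3 every other treated library lies above the PBS libraries, which reach 274 FPKM.

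The other 7 genes had log2 fold changes of -0.19 to 0.27 with DMOG and were not called. For the proteins of HDL, Apoa1 had 6299, 9067 and 11136 FPKM in the lowest, median and highest DMOG library, against 8661, 9671 and 12786 FPKM with PBS, and Apoa2 had 4480.0, 7083 and 9359 FPKM, against 6404, 7760.0 and 8875 FPKM. For these and the other 5 genes the DMOG and PBS ranges overlapped. The 95% interval of the log2 fold change was -0.49 to 0.12 for Apoa1 and -0.51 to 0.17 for Apoa2. Apob, the backbone of VLDL, had 881 to 1156 FPKM with DMOG (median 944), against 916 to 1164 FPKM with PBS (median 1044), an interval of -0.28 to 0.11. Apoe had 7158 to 14158 FPKM with DMOG (median 11751), against 9383 to 16112 FPKM with PBS (median 11920.0), and Apoh had 1395 to 2134 FPKM (median 1859), against 1638 to 2138 FPKM (median 1797). Apoc2, the lipase activator, had 379 to 710 FPKM with DMOG (median 569), against 430 to 628 FPKM with PBS (median 538). Its log2 fold change of 0.05 turned to -0.05 with the libraries rescaled to an equal total. Apoa4 had 42.8, 69.6 and 171 FPKM in the lowest, median and highest DMOG library, against 52.6, 56.4 and 97.1 FPKM with PBS, and 2 of 6 DMOG libraries exceeded every PBS library. Its interval of -0.50 to 1.04 was the widest of the 7. The median log2 fold change of the 10 genes was 0.015, against 0.013 over all genes tested.

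With roxadustat, 1 of the 10 genes was called, and it was Apoc3, which rose 2.51-fold. Among all 12657 genes tested, 2.16% were called higher and 2.02% lower with roxadustat, 4.19% in all, a split of 274 and 256 genes that became 238 and 521 with libraries at an equal total. Apoc3 was called in both. Apol11b, Apoa4 and Apoa5 had positive log2 fold changes that missed the threshold. The HDL proteins, Apob, Apoe, Apoh and Apoc2 lay within -0.14 to 0.11 on the log2 scale. The median log2 fold change of the 10 genes was 0.02, against -0.001 over all genes. The comparisons of both drugs share the PBS libraries.

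Apoc3 had 338 FPKM in the lowest, 577 FPKM in the median and 712.5 FPKM in the highest roxadustat library, against 141, 221 and 274 FPKM with PBS. All 6 roxadustat libraries were above every PBS library. Apoc3 rose by 1.33 ± 0.27 on the log2 scale (SE, adjusted p = 0.00818, 95% interval 0.75 to 1.90). With sex as a term in the fit, Apoc3 was called with roxadustat (adjusted p = 0.00273) and with DMOG (adjusted p = 0.00562).

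Apol11b had 2.68 FPKM in the lowest, 12.1 FPKM in the median and 19.3 FPKM in the highest roxadustat library, against 1.16, 2.14 and 3.78 FPKM with PBS. Of the 6 roxadustat libraries, 5 were above every PBS library and all were above the PBS mean. The log2 fold change of 1.94 ± 0.56 was close to that with DMOG, but the adjusted p of 0.0606 missed the threshold. It passed with sex as a term (2.18 ± 0.57, adjusted p = 0.0341) and without roxadustat replicate 4 (2.27 ± 0.55, adjusted p = 0.0299). It also passed without DMOG replicate 5 (1.94 ± 0.49, adjusted p = 0.0196) or DMOG replicate 3 (adjusted p = 0.0326), which enter the shared estimate of the spread.

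Apoa4 had 62.4, 101 and 271 FPKM in the lowest, median and highest roxadustat library, against 52.6, 56.4 and 97.1 FPKM with PBS. In 3 of 6 roxadustat libraries it exceeded every PBS library, with 271 FPKM in replicate 3 and 245 FPKM in replicate 4 above the other 4. Its log2 fold change was 0.91 ± 0.37 (SE, adjusted p = 0.177). Apoa5 had 87.4, 141 and 210.0 FPKM, against 67.0, 111 and 156 FPKM with PBS, with a log2 fold change of 0.42 ± 0.22 (adjusted p = 0.324, 95% interval -0.05 to 0.89).

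**Figure D3:**
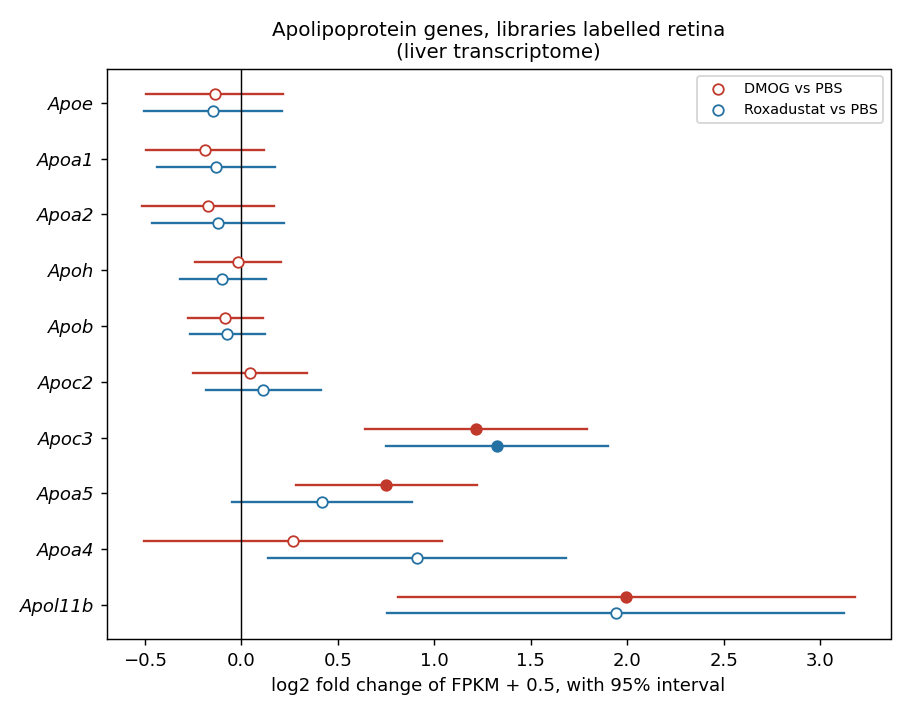
Log2 fold change over PBS of the 10 genes in the liver transcriptome, for DMOG and for roxadustat, with 95% intervals and filled points for an adjusted p under 0.05. Apoc3 is filled for both drugs, Apoa5 and Apol11b for DMOG, and the intervals of the 5 most abundant genes span 0.

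Roxadustat and DMOG were compared directly in the same fit, and 0 of the 10 genes were called by limma, against 2.99% of all genes. At an unadjusted p under 0.05 they numbered 0 of 10, against 2267 of 12657 genes. The log2 difference of roxadustat minus DMOG was 0.11 for Apoc3 (95% interval -0.46 to 0.69), -0.06 for Apol11b (-1.24 to 1.13), -0.33 for Apoa5 (-0.80 to 0.13) and 0.64 for Apoa4 (-0.13 to 1.42). The labels give no doses, so the drugs cannot be said to have been compared at matched exposure. Without DMOG replicate 5, 0 of 10 genes were called, against 16.2% of all genes. The log2 difference was then -0.13 for Apoc3, -0.445 for Apol11b, -0.41 for Apoa5 and 0.63 for Apoa4, so that of Apoc3 changed sign.

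Apoa1, Apoc3, Apoa4 and Apoa5 are neighbours on mouse chromosome 9 in that order in RefSeq, with no protein-coding gene between them. Apoc3 as a percentage of Apoa1 was 1.99% to 10.9% with DMOG (median 6.95%) and 3.78% to 9.15% with roxadustat (median 5.96%), against 1.47% to 3.04% with PBS (median 2.12%). The roxadustat libraries did not overlap PBS in this ratio, and with DMOG only replicate 5, at 1.99%, did. Apoa5 as a percentage of Apoa1 was 1.24% to 2.72% with DMOG (median 2.31%) and 0.98% to 2.29% with roxadustat (median 1.59%), against 0.76% to 1.28% with PBS (median 1.08%), and 5 of 6 DMOG libraries exceeded every PBS library. Apoa4 as a percentage of Apoa1 overlapped PBS with both drugs, with 2 of 6 DMOG libraries and 3 of 6 roxadustat libraries above the highest PBS library. The ratio of Apoc3 to Apoa4 also overlapped PBS with both drugs. In it, 4 of 6 DMOG libraries and 3 of 6 roxadustat libraries were above the highest PBS library.

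The level of the lipase inhibitor was also set against those of the lipase activator and of the VLDL protein. Apoc3 was 31.5% to 133% of Apoc2 with DMOG (median 109%) and 55.2% to 123% with roxadustat (median 95.5%), against 32.8% to 51.3% with PBS (median 39.7%). Apoc3 was 18.7% to 104% of Apob with DMOG (median 50.7%) and 30.4% to 81.0% with roxadustat (median 57.75%), against 13.4% to 29.9% with PBS (median 20.7%). In both ratios all 6 roxadustat libraries and 5 of 6 DMOG libraries lay above every PBS library. Apoc2 and Apob were not called with either drug, so both ratios largely restate the change of Apoc3. For the remnant protein set against the HDL protein, the ranges overlapped with both drugs. Apoe was 114% to 140.4% of Apoa1 with DMOG and 106% to 151% with roxadustat, against 108% to 138% with PBS, with 1 library of each drug above the highest PBS library.

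**Figure D4:**
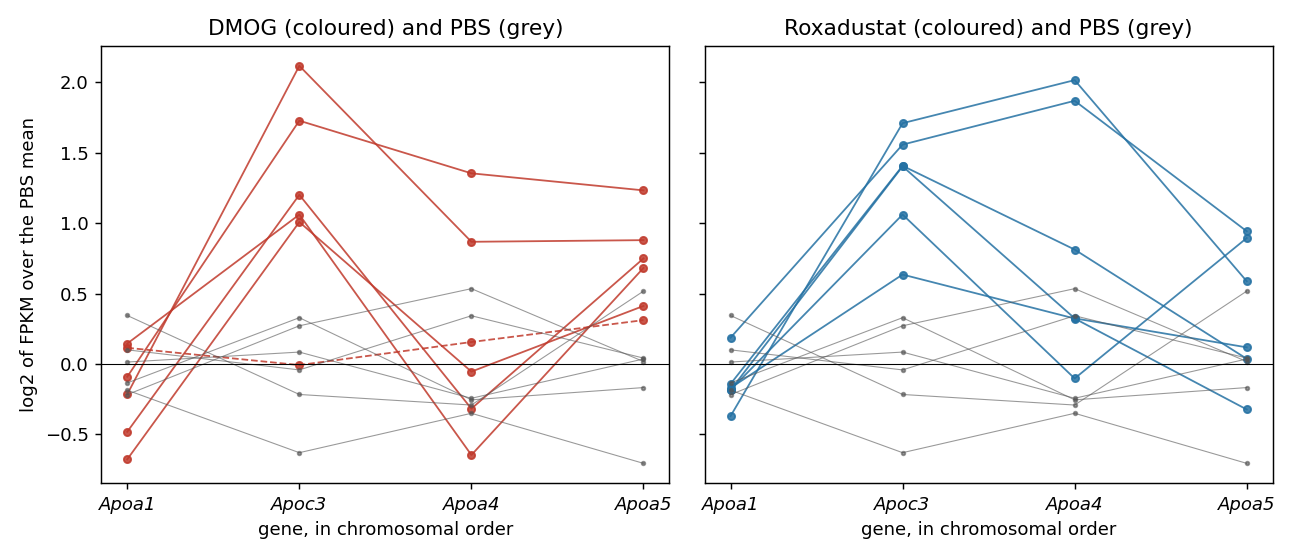
Log2 of FPKM over the PBS mean for the 4 genes of the chromosome 9 cluster in chromosomal order, with 1 line per library of the label retina (liver transcriptome), coloured for the drug and grey for PBS. At Apoc3 the lines of 5 of 6 DMOG libraries and of all 6 roxadustat libraries lie above every PBS line, and the dashed line is DMOG replicate 5.

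The genes whose levels ran most like each called member over the 18 libraries labelled retina were found by Pearson correlation of log2(FPKM + 0.5), given as a description of libraries that share 3 treatments. For Apoc3 they were Tpi1 (0.93) and Eno1 (0.92), which encode glycolytic enzymes, and Col12a1 (0.92), which encodes a collagen. Eno1 had 143 to 408 FPKM with DMOG and 261 to 379 FPKM with roxadustat, against 131 to 169 FPKM with PBS, and DMOG replicate 5 was again the treated library within the PBS range. For Apoa5 they were 2510049J12Rik (0.87), Stbd1, a glycogen-binding protein (0.86), and Dusp3, a phosphatase (0.86). For Apol11b they were its paralog Apol10a (0.96), Atp1b3, a sodium pump subunit (0.92), and Srgn, the proteoglycan serglycin (0.91). Apoa1, Apoa2, Apoe and Apoh correlated with each other at 0.72 to 0.89, and Apol11b with each of these at -0.78 to -0.58.

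In RNA of a whole organ, fewer cells of a type and less RNA per cell cannot be told apart. The hepatocyte marker sums given above overlapped between treatments, but they count Apoa1 itself and hold Alb, Ahsg and Trf at 0. Beside the marker counts that follow, 20.0% of all genes were called with DMOG and 4.19% with roxadustat. At an unadjusted p under 0.05 (limma) they numbered 4360 and 2394 of 12657 genes. Of 9 hepatocyte markers tested, 3 were higher with DMOG (Fgb, Fgg and Tat) and 0 were called with roxadustat. At an unadjusted p under 0.05 (limma), 5 of the 9 passed with DMOG and 1 with roxadustat. Of 11 macrophage markers 0 were called with either drug (1 with DMOG and 0 with roxadustat at an unadjusted p under 0.05). Their sum was 569 to 1714 FPKM with DMOG (median 1259) and 635 to 1436 FPKM with roxadustat (median 1140.0), against 741 to 1404 FPKM with PBS (median 812), with no marker at 0 in all libraries. Bile duct markers were higher for 2 of 5 genes with DMOG (Krt7 and Krt19), and 0 were called with roxadustat. At an unadjusted p under 0.05 (limma), 3 of these 5 passed with DMOG and 1 with roxadustat. Stellate cell markers were lower for 1 of 7 with DMOG (Des) and for 2 of 7 with roxadustat (Pdgfrb and Col3a1). By unadjusted p, 1 of these 7 passed with DMOG and 6 with roxadustat. The median log2 fold change of the 7 with roxadustat was -0.26, against -0.001 over all genes. Of 7 liver endothelium markers, 1 was higher with DMOG and 0 were called with roxadustat (1 and 3 by unadjusted p). The part of cell composition in the levels of Apoc3, Apoa5 and Apol11b was not tested.

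In the retina transcriptome (libraries labelled liver), Apoe was the only abundant member, at rank 106 of 22558 genes. Apoe had 553 to 654 FPKM with DMOG (median 599) and 435 to 680 FPKM with roxadustat (median 622), against 515 to 768 FPKM with PBS (median 645). The groups overlapped throughout, with log2 fold changes of -0.09 ± 0.11 for DMOG (adjusted p = 0.74, 95% interval -0.31 to 0.14) and -0.11 ± 0.11 for roxadustat (adjusted p = 0.646, -0.34 to 0.12). Apoa2 had 4.06 to 5.11 FPKM with DMOG (median 4.78) and 2.78 to 4.23 FPKM with roxadustat (median 4.04), against 3.81 to 5.49 FPKM with PBS (median 4.49). All 6 roxadustat libraries were below the PBS mean and the groups overlapped. For Apoa2 the log2 fold change was -0.25 ± 0.095 with roxadustat (unadjusted p = 0.0178 in limma, adjusted p = 0.176) and 0.01 ± 0.095 with DMOG (adjusted p = 0.965). Of these 2 genes, 0 were called by limma with DMOG (0 at an unadjusted p under 0.05), against 1.07% of all 13779 genes tested, and 0 with roxadustat (1 at an unadjusted p under 0.05), against 2.34%. For roxadustat against DMOG 0 of the 2 were called (Apoa2 at an unadjusted p of 0.0133, limma), against 1.31%.

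The other 8 genes averaged under 0.5 FPKM in the libraries labelled liver and were not tested. Apoa1 had a median of 0.251 FPKM with DMOG and 0.281 FPKM with roxadustat, against 0.239 FPKM with PBS, and Apoh had 0.134 and 0.133 FPKM, against 0.194 FPKM. Apoa4 was listed at 0 in 16 of the 18 libraries, Apoa5 in 14, Apoc3 in 12, Apob in 9, Apoc2 in 5 and Apol11b in 3. The highest single values were 0.469 FPKM for Apoc3, in a PBS library, and 0.704 FPKM for Apol11b, in a DMOG library. The 3 genes that were called with DMOG in the liver transcriptome were therefore at or near 0 in the retina transcriptome with each treatment.

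**Figure D5:**
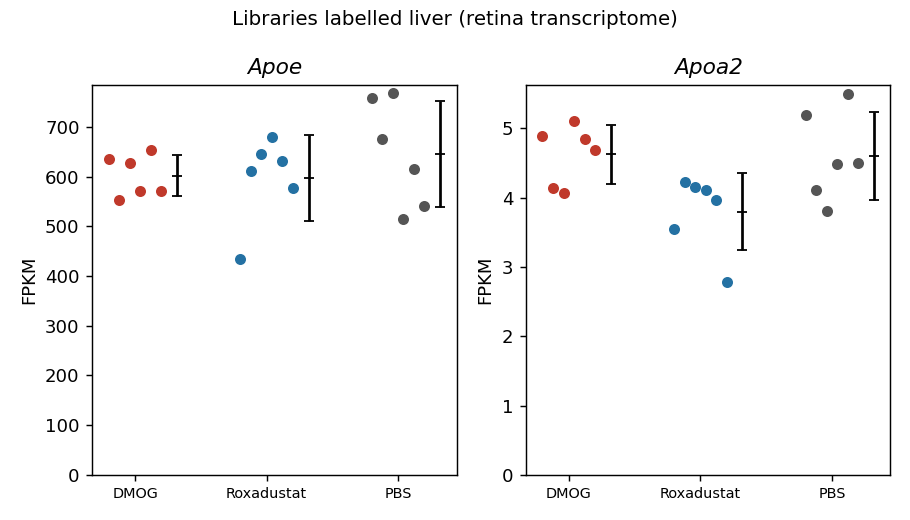
FPKM of Apoe and Apoa2 in the 6 libraries of each treatment with the label liver (retina transcriptome), each point a library, with the mean and SD beside each group. The groups overlap for both genes, and all 6 roxadustat libraries of Apoa2 lie below the PBS mean of 4.60 FPKM.

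The difference of each drug response between the libraries, labelled retina minus labelled liver, could be tested for Apoe and Apoa2. For DMOG it was -0.05 ± 0.20 for Apoe (SE, adjusted p = 0.889) and -0.18 ± 0.18 for Apoa2 (adjusted p = 0.531), and 15.9% of the 11101 genes tested were called by limma. For roxadustat it was -0.03 ± 0.20 for Apoe (adjusted p = 0.963) and 0.13 ± 0.18 for Apoa2 (adjusted p = 0.796), with 2.24% of genes called. At an unadjusted p under 0.05, 0 of the 2 genes differed for either drug.

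The rest of the apolipoprotein pathway was followed in lists of genes by role, in the liver transcriptome first. Of 16 other apolipoprotein genes tested, 0 were higher and 1 was lower with DMOG, against 20.0% of all genes called. It was Saa4, a constitutive serum amyloid A carried on HDL (log2 fold change -0.62 ± 0.18, adjusted p = 0.024), and the call was lost without DMOG replicate 1, 3 or 4 or PBS replicate 6. With roxadustat, Apon, apolipoprotein N, was higher with 60.9 FPKM in the lowest and 76.6 FPKM in the median library, against a median of 41.5 FPKM with PBS (0.91 ± 0.16, adjusted p = 0.00263). Apol7a was lower (-0.75 ± 0.15, adjusted p = 0.00576), with 14.8 to 21.9 FPKM with roxadustat, against 22.0 to 37.8 FPKM with PBS. Apoc1 and Apoc4, which lie between Apoe and Apoc2 on chromosome 7, were not called with either drug (-0.19 to -0.10).

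Among lipoprotein receptors and their partners, Sort1, the sorting receptor sortilin, fell by 0.84 ± 0.12 on the log2 scale with DMOG (adjusted p = 0.000792), and Vldlr, the VLDL receptor, rose by 0.65 ± 0.17 (adjusted p = 0.0111). With roxadustat neither was called, with log2 fold changes of -0.43 ± 0.12 for Sort1 (adjusted p = 0.0571) and 0.47 ± 0.17 for Vldlr (adjusted p = 0.119).

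Of 20 genes of VLDL assembly and apolipoprotein B editing, 2 were higher and 4 were lower with DMOG, while Apob itself was not called. Beside this list and the efflux list below, 8.26% of all genes were higher and 11.7% lower with DMOG. Mia2, a carrier of large cargo out of the endoplasmic reticulum, fell by 1.04 ± 0.17 (adjusted p = 0.00101), Dgat2, the last enzyme of triglyceride synthesis, by 0.90 ± 0.175 (adjusted p = 0.00217), and Cideb, which loads lipid onto VLDL, by 0.53 ± 0.115 (adjusted p = 0.00404). Apobec1, the deaminase that edits the Apob transcript, rose by 0.76 ± 0.18 (adjusted p = 0.00795). Of 12 genes of cholesterol efflux, 4 were lower and 0 higher, among them Npc1, the lysosomal cholesterol exporter (-0.66 ± 0.13, adjusted p = 0.00251), Abcg8, a biliary sterol transporter (-0.91 ± 0.20, adjusted p = 0.00488), and Lipa, the lysosomal acid lipase (-0.33 ± 0.09, adjusted p = 0.0169). Abcg5, the partner of Abcg8, was the fourth (-0.46 ± 0.16, adjusted p = 0.0466), lost in 13 of 25 alternative settings. With roxadustat 0 of these 20 and 0 of these 12 genes were called by limma, and 4 of each list had an unadjusted p under 0.05, as did 2394 of all 12657 genes.

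Of 30 transcription factors of apolipoprotein genes, 5 were higher and 12 were lower with DMOG, and 1 was higher and 3 were lower with roxadustat. Among all genes, 8.26% were higher and 11.7% lower with DMOG, and 2.16% and 2.02% with roxadustat. With DMOG the smallest adjusted p were those of Nr0b2, the corepressor SHP (-3.01 ± 0.45, adjusted p = 0.000792), Srebf1 and Srebf2, the regulators of fatty acid and cholesterol synthesis (-0.87 ± 0.15 and -0.53 ± 0.09), and Nr2f2, an orphan nuclear receptor (-0.43 ± 0.075). With roxadustat Srebf2 (-0.57 ± 0.09, adjusted p = 0.00185), Srebf1 (-0.66 ± 0.15, adjusted p = 0.017) and Mlxipl, the carbohydrate response factor (-0.61 ± 0.16, adjusted p = 0.0346), were lower, and Cebpb (0.84 ± 0.20, adjusted p = 0.0231) was higher. The call of Mlxipl was lost in 10 of 25 alternative settings and that of Cebpb in 5. The list medians were -0.16 with DMOG and -0.18 with roxadustat, against 0.013 and -0.001 over all genes. Of 19 HIF targets tested in the same libraries, 17 were higher with DMOG and 16 with roxadustat.

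With libraries at an equal total, 584 of all 12665 genes were higher with DMOG and 2690 lower, against 1046 and 1480 of 12657 as deposited. In that setting the DMOG counts higher and lower were 0 and 2 for the other apolipoproteins. They were 1 and 6 for 13 receptors and partners (1 and 2 as deposited) and 1 and 4 for 15 lipases and inhibitors (1 and 0 as deposited). For VLDL assembly they were 1 and 6, for efflux 0 and 5 and for transcription factors 4 and 16. Without DMOG replicate 5, when 35.4% of all genes were called with DMOG, the counts higher and lower became 2 and 2 for the other apolipoproteins, 1 and 3 for receptors, 1 and 2 for lipases, 2 and 5 for VLDL assembly, 3 and 4 for efflux and 7 and 13 for transcription factors. The 10 members gave 3 higher and 0 lower in that fit. With roxadustat, when 8.74% of all genes were called, the members gave 2 higher, Apoc3 and Apol11b.

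In the retina transcriptome 3 of 19 HIF targets were higher with DMOG and 14 of 19 with roxadustat. The lists of the apolipoprotein pathway held 0 to 2 calls each, where 1.07% of all genes were called with DMOG and 2.34% with roxadustat. With DMOG, Abca1, the exporter that lipidates apolipoproteins A1 and E, was higher among 10 efflux genes (0.45 ± 0.09, adjusted p = 0.0183). The call was lost without DMOG replicate 2 or 4 or PBS replicate 2. In the other 5 lists 0 genes were called with DMOG by limma (0 to 4 a list at an unadjusted p under 0.05, as for 1892 of all 13779 genes). With roxadustat, Lpl, lipoprotein lipase, was lower (-0.33 ± 0.07, adjusted p = 0.0192, lost without roxadustat replicate 2 or PBS replicate 3), and Lmf1, the chaperone that matures it, was higher (0.33 ± 0.06, adjusted p = 0.0026), among 12 genes of lipases and inhibitors. Soat1, P4hb, Vldlr and Sort1 were also called with roxadustat, with log2 fold changes of -0.19 to 0.28, and each call was lost in at least 4 of 25 alternative settings.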

How the data were processed

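RNA of 36 libraries of mouse liver and retina was extracted with RNeasy and sequenced as stranded total RNA after ribosomal RNA removal, per the labels' protocols. Tools per the submitters' processing notes were Cuffdiff 2.2.1, bcl2fastq 1.8.3 and TopHat2 version 2, with mm9 as the build. The deposited values are FPKM per gene and library. The annotation and the library scaling are not given in the sources used here. Read counts are not given, so depth is unknown and no counting interval is printed. For the label retina, steps between low values gave a relative depth of 0.815 to 1.24 with DMOG, 0.745 to 1.15 with roxadustat and 0.917 to 1.15 with PBS. For the label liver the ranges were 0.979 to 1.32, 0.853 to 1.26 and 0.865 to 0.914. Every PBS library labelled liver was thus below every DMOG library in this measure, so depth and DMOG cannot be told apart in that comparison. A row holding sums over genes was not used.

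For each table, limma 3.58.1 (R 4.3.3) was fitted to log2(FPKM + 0.5) of the genes averaging 0.5 FPKM or more over the 18 libraries, as 3 group means with empirical Bayes and a mean trend. P-values are two-sided, were adjusted by Benjamini-Hochberg across every gene in the fit, and were called under 0.05. The difference between tissues was an interaction over 36 libraries. Alternatives were pseudocounts of 0.1 and 1, no filter, rescaling by equal totals or median ratios, the replicate number as a block, sex as a term and leaving out each library. The fits were tested on data simulated with independent noise of the PBS spread. No sex difference and no library like DMOG replicate 5 was simulated. Promoters were taken from RefSeq GRCm38.p6. Descriptions used Python 3.11.15 and plots matplotlib 3.10.9. All 10 genes are named, up to 4 called genes with the smallest adjusted p are named per list and comparison with PBS, and the 3 most correlated genes are named for called members. Some list genes are not reported here. The genes, lists and tests were chosen with earlier results of these data known.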

Additional observations from a re-analysis of the deposited data

Results flagged for a closer look

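Apoa1 in roxadustat replicate 4 of the libraries labelled retina (liver transcriptome) stood apart from its group, at 11459 FPKM against 7790.0 to 9126 FPKM in the other 5 roxadustat libraries. The gap to the next library was 0.636 of the range of the group. The value lay within the PBS range of 8661 to 12786 FPKM. Of 36 groups of 6 libraries examined, 1 was marked in this way, and chance marks about 1 in 20.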

How the results depend on the processing

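In the libraries labelled retina (liver transcriptome), Apoc3 was called with both drugs under all alternatives, and Apol11b with DMOG. Leaving out each library in turn moved the log2 fold change of Apoc3 over 1.03 to 1.45 with DMOG and 1.21 to 1.46 with roxadustat, that of Apol11b over 1.60 to 2.39 with DMOG and 1.74 to 2.27 with roxadustat, and that of Apoa5 over 0.62 to 0.86 with DMOG. The members called numbered 2 to 3 with DMOG and 1 to 2 with roxadustat, and 2 with roxadustat when sex was a term.

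Counts of all genes called moved more. They ranged over 1808 to 4486 for DMOG, lowest without DMOG replicate 4 and highest without DMOG replicate 5, over 348 to 1107 for roxadustat (without roxadustat replicate 1 and DMOG replicate 5) and over 105 to 2048 for roxadustat against DMOG (without DMOG replicate 1 and 5). The last count was 232 with no filter and 78 with sex as a term. With the label liver they ranged over 48 to 420 for DMOG (without DMOG replicate 4 and PBS replicate 4) and 209 to 482 for roxadustat (without roxadustat replicate 3 and PBS replicate 4). For the difference between labels they ranged over 1386 to 3202 for DMOG and 160 to 527 for roxadustat, both highest without DMOG replicate 5 with the label retina. Without the filter the difference was called for 394 genes with roxadustat, for 2 members with DMOG (Apoc3 and Apoa5) and for 1 with roxadustat (Apoc3), with both genes at or near 0 in the retina transcriptome. The cause of the other moves was not tested.

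The values that changed sign were all uncalled. With equal totals they were Apoc2 with DMOG (-0.0499), Apoe for roxadustat against DMOG (0.0452, and 0.000772 with median ratios) and Apoa2 with DMOG and the label liver (-0.00441). With sex as a term they were, for roxadustat against DMOG, Apoa1 (-0.0351), Apoa2 (-0.0669), Apob (-0.0549) and Apol11b (0.307). Leaving out libraries gave -0.0303 to 0.151 for Apoc2 and -0.064 to 0.0588 for Apoh with DMOG. For roxadustat against DMOG it gave -0.0389 to 0.126 for Apoa1, -0.0727 to 0.14 for Apoa2, -0.024 to 0.0631 for Apob, -0.0375 to 0.144 for Apoc2, -0.127 to 0.297 for Apoc3, -0.135 to 0.0616 for Apoe and -0.445 to 0.34 for Apol11b. With the label liver it gave -0.0336 to 0.0615 for Apoa2 with DMOG and -0.0644 to 0.0643 for Apoe between the drugs. The difference of Apoe between labels spanned -0.13 to 0.0783 for DMOG and -0.121 to 0.0442 for roxadustat.

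Whether the replicate numbers pair the libraries could not be decided, since libraries with different numbers were not correlated as a reference. Within each label, 7 of 18 pairs with the same number deviated together with a correlation over 0.1. The correlations of these pairs spanned -0.333 to 0.546 with the label retina and -0.24 to 0.315 with the label liver. With the replicate number as a block, 3 members were called with DMOG and 1 with roxadustat, and all genes called numbered 2843 and 539. Depth is unknown, so the precision of the values near 0 in the retina transcriptome could not be given.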
